A study of Homo sapiens with 4 samples.

Results

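RAC1, PAK1, PAK2, TIMP2, VMA21 and DICER1 are 6 genes known from other work to use a nearer poly(A) site when NUDT21, the RNA-binding subunit of the cleavage factor CFIm, is lost. They were chosen for that reputation and not for a value in these data, although earlier results of these data were known. A poly(A) site cluster (PAC), a group of neighbouring cleavage positions, was given to a gene when its dominant site lay inside the gene's GENCODE 44 span on the same strand. All 6 of 6 genes had at least 1 PAC, of 11141 genes with a PAC, and together they held 11 of the 17627 PACs in the series. Only 4 of them, RAC1, PAK2, TIMP2 and VMA21, had several 3′ UTR PACs with a TPM above 5 in at least 1 library, as did 2053 coding genes in all. The remaining 2 genes had 1 such PAC each.

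The libraries came from 2 established lines of esophageal squamous cell carcinoma, KYSE30 and TE-1, and each line gave 1 library treated with L-lactate and 1 control library treated with PBS. Treated means treated with L-lactate in what follows. Per the study's methods, L-lactate was given at 20 mM for 24 h. The titles place both controls with KYSE30 and TE-1, whereas the cell line field of the control libraries reads KYSE32 and TE-3. No library carried a loss of NUDT21, so the response that defines these genes was not measured here. With 1 library per line and treatment there is no replicate error within a line, and the intervals below are 95% intervals for counting error in single libraries. The lines themselves are the only repeat of the L-lactate comparison.

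CFIm binds UGUA motifs upstream of a cleavage site and favours cleavage there, and many of its targets carry UGUA near the distal poly(A) site (dPAS) and fewer near the proximal poly(A) site (pPAS). Choice of the dPAS keeps a longer 3′ UTR in the mRNA, with more room for microRNA and protein binding, while the coding sequence stays the same. RAC1 is a small GTPase that drives actin remodelling, and PAK1 and PAK2 are p21-activated kinases that act downstream of it. TIMP2 is a secreted inhibitor of matrix metalloproteinases, VMA21 is an assembly factor of the vacuolar proton pump, and DICER1 cuts microRNA precursors.

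The 30 nt printed for each PAC run up to the dominant site, 5′ to 3′ on the strand that reads as the mRNA. They were read from GRCh38 (hg38), with the poly(A) signal in capitals. They are shown because pPAS and dPAS can be told apart only by these positions. The TIMP2 pPAS window ends 1 nt before the site, since its signal lay further upstream.
RAC1 pPAS, chr7:6402663-6402692, plus strand: acattctATTAAAatttagccctaaaatga
RAC1 dPAS, chr7:6403936-6403965, plus strand: gcatgtatgacttAATAAAtccttgaatca
PAK1 pPAS, chr11:77322975-77323004, minus strand: aAATAAAtgtttctagtcttccgtgtgtca
PAK1 dPAS, chr11:77321558-77321587, minus strand: ccagtttttgaactttaAATAAAcatatca
PAK2 pPAS, chr3:196829317-196829346, plus strand: atttggaAATAAAtttctgtatatgttgca
PAK2 dPAS, chr3:196830666-196830695, plus strand: acttgtcATTAAAacctggctctttggtta
TIMP2 pPAS, chr17:78855544-78855573, minus strand: AATAAAacactcatcccatgggtccaaatt
TIMP2 dPAS, chr17:78852984-78853013, minus strand: tcggtccgtggacAATAAAcagtattatca
VMA21 pPAS, chrX:151405132-151405161, plus strand: gAATAAAgttgaaagaacatgttaaagtca
VMA21 dPAS, chrX:151409335-151409364, plus strand: atgtcATTAAAaaaagtgtttgtagtgcta
DICER1 only PAS, chr14:95086228-95086257, minus strand: taaatctccAATAAAgttatcgtctgttca

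Every one of these 11 sites had AATAAA or ATTAAA, the DNA letters of the usual signals AAUAAA and AUUAAA, within 50 nt upstream, as did 84.7% of the 11727 PACs in 3′ UTRs over the TPM minimum. Only the strand that reads as the mRNA was searched. RAC1, PAK2 and VMA21 had a different signal at each of their 2 sites, and in RAC1 the pPAS had ATTAAA and the dPAS AATAAA. In PAK2 and VMA21 the order was the opposite, with AATAAA at the pPAS and ATTAAA at the dPAS. The 20 nt past the sites held at most 6 A bases at any of the 11 sites, below the 12 that marked 0.691% of all 3′ UTR PACs as A-rich.

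The motif UGUA (TGTA in the DNA) was searched in the 100 nt upstream of each dominant site. All 5 dPAS and the DICER1 site held it, with 6 copies in VMA21, 2 in DICER1 and 1 in each of the others. Of the 5 pPAS, those of RAC1 and PAK2 held 1 copy each, and those of PAK1, TIMP2 and VMA21 held none. Among the 2053 genes with several sites, 64.1% of the most distal and 54.2% of the most proximal PACs held at least 1 copy, so the motif is common at both ends. The copies nearest to the dPAS lay at different distances, from 6 nt in VMA21 to 80 nt in PAK1, and are shown here in capitals with 13 nt on each side except in VMA21, where the window ends at the site.
RAC1, 23 nt before the dPAS, chr7:6403926-6403955: attatgttttgcaTGTAtgacttaataaat
PAK1, 80 nt before the dPAS, chr11:77321625-77321654: tttcttgcttttcTGTAtactttcatcaca
PAK2, 77 nt before the dPAS, chr3:196830602-196830631: gcagtttgggattTGTAgttgcgacttctt
TIMP2, 48 nt before the dPAS, chr17:78853019-78853048: gtctctgatgcttTGTAtcattcttgagca
VMA21, 6 nt before the dPAS, chrX:151409335-151409364: atgtcattaaaaaaagtgttTGTAgtgcta
DICER1, 36 nt before its site, chr14:95086251-95086280: tttttgtaataatTGTAgccaagtaaatct

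With a window of 50 nt the motif was left at the dPAS of RAC1 and VMA21, at the DICER1 site and at the pPAS of RAC1 and PAK2. The dPAS of TIMP2 kept none at that width, because its nearest copy ended 48 nt away and crossed the edge of the window, and those of PAK1 and PAK2 lay further off. Of all most distal PACs 38.5% held UGUA within 50 nt.

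The 2 PACs of a gene defined 3′ UTRs of very different length. In VMA21 the sites lay 103 and 4306 nt past the stop codon, so the longer 3′ UTR was 41.8 times the shorter. In TIMP2 they lay 124 and 2683 nt past it, a ratio of 21.6. The distances were 246 and 1519 nt in RAC1 and 941 and 2290 nt in PAK2, for ratios of 6.17 and 2.43. The PAK2 value of 2290 nt is that of KYSE30, at -1952 nt from the annotated gene end, that is before it. In TE-1 the dominant position of that PAC lay 1842 nt past the stop codon in the control and 1701 nt past it with L-lactate. The stretch that the longer form adds held 37 UGUA copies in VMA21, 11 in TIMP2, 10 in RAC1 and 7 in PAK2, or between 4.30 and 8.80 per kb. Each of these sites lay in the last exon of the gene's reference transcript, which is exon 3 in VMA21, exon 5 in TIMP2, exon 6 in RAC1 and exon 15 in PAK2. The DICER1 site fell exactly on the annotated end in exon 27, 4270 nt past the stop codon.

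Recovered depth was 7174991 to 10393799 tags per library, and from 92.5% to 93.1% of the tags lay in listed PACs. The tables start at 8 to 11 tags per PAC, so a PAC that is not listed may hold fewer tags and no upper limit for it is given. The 4 libraries were checked against 12 cell type markers, counting PACs up to 1000 nt past the gene end. EPCAM was listed at 635 and 563 TPM in treated and control KYSE30 cells and at 36.4 and 30.7 in treated and control TE-1 cells, and CDH1 at 228, 204, 1.30 and 0 in the same order. SFN was at 205 to 313 TPM in all 4 libraries, TP63 and KRT6A in KYSE30 alone and KRT17 in TE-1 alone. KRT5, KRT14, PTPRC and PECAM1 were listed in no library, while the fibroblast genes COL1A1 and PDGFRB had 4.14 to 6.85 TPM in TE-1 alone. Each control library thus carried the marker pattern of the treated library with the same line in its title.

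RAC1 had more tags in each library than any other member. Its pPAS had 131 TPM in the L-lactate library and 143 TPM in the control library of KYSE30, and 96.1 and 86.6 TPM in treated and control TE-1 cells. The dPAS had 364 and 339 TPM in KYSE30 and 347 and 274 TPM in TE-1. The dPAS was therefore the major site in all 4 libraries. The distal share, the percentage of 3′ UTR tags of the gene at its most downstream PAC, was 73.6% (72.1 to 74.98) with L-lactate and 70.3% (68.8 to 71.8) in control KYSE30 cells. In TE-1 it was 78.3% (77.0 to 79.6) and 76.0% (74.6 to 77.3).

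The L-lactate library was the higher in both lines, by 3.22 percentage points in KYSE30 (1.13 to 5.30) and by 2.35 in TE-1 (0.45 to 4.25). Both intervals left out 0, and both changes were small beside the 10 points used as a call. Of all genes tested, 54.3% in KYSE30 and 42.5% in TE-1 changed by less than RAC1 did, in either direction. In KYSE30 the pPAS was lower and the dPAS higher with L-lactate, by log2 ratios of -0.13 and 0.10. In TE-1 both PACs were higher, by 0.15 and 0.34, so the share moved while the level of each site moved too.

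Among the 4 genes with both sites in their span, PAK2 showed the widest gap between the lines. The pPAS had 11.2 TPM with L-lactate and 12.3 TPM in control KYSE30 cells, and 19.7 and 16.4 TPM in TE-1. The dPAS had 63.6 and 66.0 TPM in KYSE30 against 27.5 and 23.6 TPM in TE-1. TE-1 was thus higher at the pPAS and lower at the dPAS in both treatments, by the values of single libraries. The distal share was 85.1% (81.8 to 87.8) and 84.3% (81.2 to 87.1) in treated and control KYSE30 cells, and 58.3% (53.4 to 63.0) and 59.0% (54.2 to 63.7) in treated and control TE-1 cells.

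Between the lines, TE-1 minus KYSE30, this was a difference of -25.3 points in the controls (-30.8 to -19.7) and of -26.8 with L-lactate (-32.4 to -21.1). With L-lactate the change was 0.74 points in KYSE30 (-3.52 to 4.95) and -0.79 in TE-1 (-7.52 to 5.95). These intervals include 0 and leave room for a change of several points either way.

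The PAK2 dPAS is a wide PAC of 669 nt that holds several cleavage positions. Its dominant position was 196830695 in both KYSE30 libraries, 196830247 in the TE-1 control and 196830106 in TE-1 with L-lactate. Relative to the KYSE30 position, with negative values upstream, the TE-1 positions lay at -448 and -589 nt, past the 24 nt used to count a shift. No position was in clear majority, since the dominant one took 25.7% to 33.0% of the tags of the PAC in the 4 libraries. The positions used in TE-1 are shown because they end in different signals.
PAK2 in TE-1 with L-lactate, chr3:196830077-196830106: tgAATAAAaaataattttgctgttgtagta
PAK2 in the TE-1 control, chr3:196830218-196830247: tttcagaaaaatgAGTAAAataattaatga

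The first of these has AATAAA ending 22 nt before the site and UGUA 3 nt before it. The second has neither usual signal in 50 nt and no UGUA in 100 nt, and its capitals mark AGTAAA, a rarer variant. Within TE-1 the change of dominant position rested on 77 of 233 tags and 70 of 245 tags. Wide PACs were uncommon, as 3.21% to 3.32% of 3′ UTR PACs in a library had 10% to 90% of their tags spread over more than 400 nt. PAK2 also had an intronic PAC at chr3:196750620-196750620, in intron 1, with 23 tags (3.10 TPM) in the KYSE30 control and not listed in the other 3 libraries. It has an AATAAA 13 nt upstream and was not counted in the 3′ UTR share. With it in the denominator the KYSE30 change in PAK2 was 3.95 points.

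PAK1 was measured with few tags. Inside its annotated span only the pPAS was listed, 299 nt past the stop codon, with 12.4 and 11.4 TPM in treated and control KYSE30 cells and 5.195 and 5.003 TPM in treated and control TE-1 cells. A further PAC, chr11:77321558-77322017, starts at the annotated end and reaches 459 nt past it. It was given to PAK1 only when the span was extended by 1000 nt. That dPAS had 16.7 and 14.9 TPM in KYSE30 and 2.60 and 1.73 TPM in TE-1, so both TE-1 values were far below both KYSE30 values.

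With the extension the distal share of PAK1 was 57.4% (50.6 to 63.9) and 56.6% (49.6 to 63.4) in KYSE30, and 33.3% (23.2 to 45.3) and 25.7% (16.9 to 37.0) in TE-1. TE-1 minus KYSE30 was -30.9 points in the controls (-42.0 to -17.6) and -24.1 with L-lactate (-36.2 to -10.3). With the extended spans, 31.8% and 31.0% of all genes tested differed by at least 10 points in these contrasts. The L-lactate change was 0.78 points in KYSE30 (-8.78 to 10.3) and 7.62 in TE-1 (-7.60 to 22.5). The TE-1 shares rest on 22 of 66 and 18 of 70 tags, so a change of 10 points was not detectable at this depth.

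Both PACs of PAK1 held more than 1 cleavage position. In TE-1 with L-lactate the dominant position of the dPAS was 77322016, 1 nt past the annotated gene end and at -458 nt from the position used in the other 3 libraries, that is upstream of it. Within TE-1 this change of dominant position rested on 14 of 22 tags with L-lactate and 8 of 18 tags in the control. The site at 77322016 is shown for comparison with the dPAS above, and its 100 nt upstream hold no UGUA.
PAK1 in TE-1 with L-lactate, chr11:77322016-77322045: tctgtcAATAAAaggagatgaaaatattct

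At the pPAS, 27 of 89 tags (30.3%, 21.8 to 40.5) lay at the dominant position with L-lactate in KYSE30 and 51 of 85 (60%, 49.4 to 69.8) in the control. In TE-1 the shares were 61.4% (46.6 to 74.3) and 55.8% (42.3 to 68.4). The KYSE30 L-lactate library was the low one, and its interval overlapped none of the other 3. The rest of the tags lay within the same PAC of 83 nt.

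TIMP2 differed between L-lactate and control in opposite directions in the 2 lines. Its pPAS was even, with 31.8 and 32.3 TPM in treated and control KYSE30 cells and 37.5 and 38.5 TPM in treated and control TE-1 cells. The dPAS had 131 TPM with L-lactate and 153 TPM in control KYSE30 cells, and 272 and 226 TPM in TE-1. L-lactate was thus the lower at the dPAS in KYSE30 and the higher in TE-1. The distal share was 80.5% (78.1 to 82.6) with L-lactate and 82.6% (80.5 to 84.5) in control KYSE30 cells, and 87.9% (86.5 to 89.0) and 85.4% (84.1 to 86.7) in TE-1.

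The change was -2.13 points in KYSE30 (-5.18 to 0.88) and 2.41 in TE-1 (0.59 to 4.23). The change in KYSE30 minus that in TE-1 was -4.54 points (-8.08 to -1.01), outside counting error but with 1 library in each cell of the design. Between the lines TE-1 was higher by 2.85 points in the controls (0.50 to 5.29) and by 7.39 with L-lactate (4.85 to 10.05). The TIMP2 dPAS is a PAC of 550 nt whose dominant position held 78.5% (75.7 to 81.0) of its tags with L-lactate and 84.2% (82.0 to 86.2) in control KYSE30 cells, and 79.0% and 79.9% in TE-1. The KYSE30 control stood above the other 3 libraries in this.

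Intervals of the share at the dominant position did not overlap between L-lactate and control for 2 of the 9 member PACs that could be compared in KYSE30, those of PAK1 and TIMP2 just given. Over all 3′ UTR PACs this held for 2.33% in KYSE30 and 3.58% in TE-1, where it held for none of the 9 member PACs compared. PACs were compared here where both libraries had a TPM above 5 and the same dominant position, with the PAK1 dPAS left out.

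VMA21 used its dPAS almost alone. The pPAS, only 103 nt past the stop codon, had 4.04 and 4.85 TPM in treated and control KYSE30 cells and 8.50 and 9.81 TPM in treated and control TE-1 cells. At the dPAS the values were 106 and 108 TPM in KYSE30 and 116 and 118 TPM in TE-1. The distal share was 96.3% (94.8 to 97.4) and 95.7% (94.1 to 96.9) in KYSE30, and 93.2% (91.5 to 94.5) and 92.3% (90.8 to 93.6) in TE-1. TE-1 was lower in both treatments, with differences of -3.36 points in the controls (-5.31 to -1.29) and -3.16 with L-lactate (-5.17 to -1.08). The L-lactate change was 0.63 points in KYSE30 (-1.32 to 2.58) and 0.83 in TE-1 (-1.30 to 2.91).

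The pPAS of VMA21 differed more between the lines than its dPAS, with log2 ratios of TE-1 to KYSE30 of 0.89 and 0.13 in the controls. The dPAS was also the sharpest of the members' 3′ UTR PACs, with 97.0% to 97.2% of its tags at 1 position in each of the 4 libraries.

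DICER1 had a lone PAC at the annotated end of its gene, so no switch between sites could be measured. It had 59.2 and 59.3 TPM in treated and control KYSE30 cells, and 26.8 and 22.2 TPM in treated and control TE-1 cells. The KYSE30 libraries were equal within counting error, and TE-1 was lower in both treatments. From 88.9% to 92.5% of the tags in each library lay at the dominant position. If shorter DICER1 3′ UTRs were present, their sites stayed below what the tables list.

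Compared across the members, the order of the distal shares in KYSE30 was VMA21, PAK2, TIMP2, RAC1 and PAK1, and the intervals of PAK2 and TIMP2 overlapped in both treatments. In TE-1 the order was VMA21, TIMP2, RAC1, PAK2 and PAK1, and no 2 neighbouring intervals overlapped. PAK2 was thus the member that changed its place. The 4 members with both sites in their span lay above the median of the 1869 genes with a share in every library, which was 44.2% to 50%. VMA21 exceeded 92.5% to 94.97% of those genes and PAK2 exceeded 80.8% and 82.6% in KYSE30 but 61.5% and 59.8% in TE-1.

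The question of the study's design was whether L-lactate moves poly(A) site choice. None of the 4 members changed by 10 points or more with L-lactate in KYSE30, where 10.2% of 1952 genes tested did, and none in TE-1, where 11.7% of 1970 did. VMA21 could not have risen by 10 points, as its control share was already 95.7% in KYSE30 and 92.3% in TE-1. Counting intervals left out 0 for 1 of 4 members in KYSE30 (RAC1) against 25.7% of all genes, and for 2 of 4 in TE-1 (RAC1 and TIMP2) against 34.9%. With 4 genes these counts are near the background. The median change of the members was 0.68 points in KYSE30 and 1.59 in TE-1, beside -0.29 and 0.09 over all genes tested. VMA21 and RAC1 had a higher share with L-lactate in both lines, and PAK2 and TIMP2 in 1 line each. Over the 2 lines the mean change was 2.79 ± 0.61 points for RAC1, 0.73 ± 0.14 for VMA21, 0.14 ± 3.21 for TIMP2 and -0.02 ± 1.08 for PAK2 (SD, n = 2 lines). In a limma fit to the shares of 1869 genes with the line as a block, which leaves 1 residual degree of freedom per gene, the adjusted p was 0.50 for RAC1 and 0.86 to 1.00 for the other 3.

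In absolute size the difference between the lines was larger than either L-lactate change for each of the 4 members. The margin was widest for PAK2 and narrow for TIMP2 in the controls, at 2.85 points beside -2.13 and 2.41. Between the lines, 1 of the 4 members passed 10 points in each treatment (PAK2). Of all genes, 31.3% of 1880 passed it in the controls and 30.7% of 1891 with L-lactate. Intervals left out 0 for all 4 members in both treatments, beside 58.5% of genes in the controls and 57.1% with L-lactate. PAK2 and VMA21 had the lower share in TE-1, and TIMP2 and RAC1 the higher. RAC1 was 5.62 points higher in TE-1 controls (3.59 to 7.65) and 4.76 higher with L-lactate (2.80 to 6.72). The 2 contrasts share no library, and each member kept its direction in both. In the control contrast 94.1% of all genes differed by less than PAK2 did, in either direction.

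The level of each gene, the TPM summed over its PACs, was compared within a gene as log2 ratios with a pseudocount of 1. No member passed 1 log2 unit with L-lactate, where 2.19% of 10065 genes did in KYSE30 and 2.05% in TE-1. The ratios ran from -0.19 (TIMP2) to 0.11 (PAK1) in KYSE30, where the counting interval left out 0 for 1 of 6 members (TIMP2, lower), beside 24.6% of all genes. They ran from -0.04 (VMA21) to 0.30 (RAC1) in TE-1, where it left out 0 for 4 of 6 (PAK2, TIMP2, DICER1 and RAC1, all higher), beside 30.1% of all genes. In a limma fit to the levels with the line as a block, the adjusted p of the 6 members was 0.80 to 0.98.

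Between the lines the 2 kinases and DICER1 were lower in TE-1. DICER1 had a log2 ratio of TE-1 to KYSE30 of -1.38 in the controls (-1.60 to -1.15) and -1.12 with L-lactate (-1.34 to -0.89). PAK1 had -1.05 (-1.48 to -0.62) and -1.11 (-1.57 to -0.66), and -1.82 and -1.78 when the PAC past its annotated end was added. PAK2 had -1.01 in the controls (-1.19 to -0.83) and -0.65 with L-lactate (-0.83 to -0.47). Thus 3 of 6 members passed 1 log2 unit in the controls and 2 of 6 with L-lactate, near the 38.5% and 37.1% of all genes. The PAK2 ratio in the controls was -0.98 when centred on the median of all genes, which leaves 2 of 6.

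In the PAK2 level the 2 sites went apart: the log2 ratio of TE-1 to KYSE30 in the controls was 0.39 at the pPAS (0.05 to 0.73) and -1.45 at the dPAS (-1.66 to -1.23). TIMP2 was higher in TE-1 by 0.51 in the controls (0.41 to 0.60) and 0.92 with L-lactate (0.82 to 1.02), mostly through its dPAS. VMA21 differed by 0.18 in each treatment and RAC1 by -0.42 and -0.16. In these bulk libraries, fewer cells that express a gene and less RNA per cell cannot be told apart.

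The subunits of CFIm were measured in the same libraries. NUDT21 had 90.7 and 87.5 TPM with L-lactate and in the control of KYSE30, and 96.8 and 100 TPM in TE-1, and its ratios with L-lactate were 0.05 and -0.05 on the log2 scale. CPSF6 had 178 and 140 TPM in KYSE30 and 283 and 168 TPM in TE-1, higher with L-lactate by 0.34 (0.22 to 0.45) and 0.75 (0.66 to 0.84). CPSF7 had 98.1 and 94.1 TPM in KYSE30 and 164 and 138 TPM in TE-1.

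NUDT21 and CPSF6 had alternative sites of their own, while CPSF7 had 1 PAC. CPSF6 was at 18.4% with L-lactate and 27.2% in control KYSE30 cells, and at 10.1% and 20.3% in TE-1, changes of -8.76 points (-12.2 to -5.32) and -10.2 points (-12.5 to -7.97). NUDT21 was at 44.5% and 39.8% in KYSE30 and at 32.0% and 22.4% in TE-1, changes of 4.70 points (-0.66 to 10.03) and 9.52 points (5.45 to 13.6). Of the 2 subunits with several PACs, 1 passed 10 points, in TE-1, beside 11.7% of 1970 genes there. Each of the 2 had 3 PACs over the TPM minimum in the 3′ UTR, so the rest of its tags came from more than 1 site. NUDT21 was also lower in TE-1 than in KYSE30, with differences of -17.4 points in the controls and -12.6 with L-lactate.

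Among 12 other genes reported as NUDT21 targets, all 12 had a PAC, and those with several in the 3′ UTR included WDR5 and PSMB2. WDR5 is a scaffold subunit of histone methyltransferase complexes, and its distal share was 35.9% and 35.3% in treated and control KYSE30 cells and 25% and 19.1% in treated and control TE-1 cells. Its change was 0.51 points in KYSE30 (-5.99 to 7.03) and 5.86 in TE-1 (2.09 to 9.69). PSMB2, a proteasome subunit, was at 2.04% to 4.03% in the 4 libraries and differed by -0.52 and 0.03 points in KYSE30 and TE-1. Neither passed 10 points in either line.

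Of 12 relatives of the members, 8 had a PAC in their span and 2, CDC42 and TIMP3, had several in the 3′ UTR. CDC42, a small GTPase like RAC1, kept a distal share of 95.2% to 96.2% in the 4 libraries. TIMP3, an inhibitor like TIMP2, was at 36.9% with L-lactate and 48.4% in control KYSE30 cells, a change of -11.5 points (-19.3 to -3.48). In TE-1 its dPAS was not listed, and its pPAS had 51 and 21 tags.

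For each member, the 2 genes with the most similar distal shares over the 4 libraries were sought among 1868 genes, by the smallest value of the largest difference. VMA21 was closest to CAV1 and GNG12, within 0.61 and 1.24 points. TIMP2 was closest to GLE1 and IL13RA1, within 1.40 and 1.51 points, and RAC1 to HSDL2 and C3orf38, within 1.97 and 2.21. For PAK2 the closest were FZD2 and YTHDC2, within 3.28 and 4.16 points, and FZD2 had 86.5% and 81.1% in KYSE30 and 61.5% and 60.1% in TE-1. The likeness is a description over 4 libraries.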

How the data were processed

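PAS-seq, which sequences mRNA 3′ ends, was done on 4 libraries. Per the study's methods, reads were trimmed, aligned with HISAT2 to GRCh38 (p14 in the submitters' processing notes) and clustered with CAGEr, sites of low TPM were excluded, and neighbouring PACs were joined. The TPM values deposited by the authors are RPM, tags scaled to the total tags of the library, with no length correction. Positions are in the same tables.

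Tables were joined on the cluster number. Whole tags were recovered from the steps between TPM values, and 100.0% of values were whole within 0.00051 TPM. PACs were placed by dominant site on GENCODE 44, and the distal share was the tags of the most downstream 3′ UTR PAC over those of all 3′ UTR PACs with a TPM above 5 in at least 1 of 4 libraries. A gene needed a summed TPM of 5 in both libraries compared. A gene was called at 10 percentage points or 1 log2 unit. Shares have Wilson and differences Newcombe 95% intervals. These cover counting error only, and PCR copies are not independent molecules. Calls of distal share were checked on simulated tags with known rises and counting noise alone. Every simulated rise was larger than the 10 percentage points of a call, so the recovery of smaller changes was not checked. The raised genes had lower control shares than VMA21 and TIMP2, than PAK2 in KYSE30 and than RAC1 in TE-1. SciPy 1.17.1, pandas 2.3.3, NumPy 2.4.6 and matplotlib 3.10.9 were run in Python 3.11.15.

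The members and lists were chosen with earlier results of these data known. Named are all 6 members with every PAC, the CFIm subunits, genes of 2 lists (reported NUDT21 targets, relatives) with several 3′ UTR PACs, and for each member the 2 genes of most similar share. A result under this rule is not reported here. Alternatives changed the minimum TPM, denominator, unlisted PACs, span, definition of distal, size of a call, pseudocount, centring and sequence windows. After the data were seen, limma 3.58.1 in R 4.3.3 was added, fitted over all genes with the line as a block and Benjamini-Hochberg adjustment. A further alternative required Fisher's exact test of the tags, which compares single libraries.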

Additional observations from a re-analysis of the deposited data

Results flagged for a closer look

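PAK2 and TIMP2 had changes of opposite sign in the 2 lines. The distal share of PAK2 differed between L-lactate and control by 0.74 points in KYSE30 and by -0.79 points in TE-1, and the difference of these changes was 1.52 points (-6.45 to 9.50), within counting error. That of TIMP2 differed by -2.13 points in KYSE30 and by 2.41 points in TE-1. The difference between the lines was not tested against variation between cultures, as each value rests on 1 library.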

How the results depend on the processing

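Each of the 92 recomputed changes and line differences in distal share of the members kept its direction and its side of 10 points under the alternatives that gave a value. Most alternatives could not move a share, because each gene had 2 PACs in the 3′ UTR, both listed in all libraries, and none in the extension. Values differed only for PAK2 with every PAC of the span in the denominator, in KYSE30 and between the control libraries. Of the 11 member PACs in spans, 8 held UGUA within 100 nt and 6 within 50 nt, and all 11 kept a poly(A) signal within 40 nt. The 48 recomputed log2 ratios kept their direction, and their side of 1 log2 unit except PAK2 between the control libraries, at -1.01 as given and -0.98 when centred. The KYSE30 change of PAK2 was 3.95 points in place of 0.74 with every PAC of the span in the denominator. The PAK2 difference between the control libraries was then -22.1 points in place of -25.3. Chosen after seeing the data, limma with the lines as pairs (line as a block) called 0 of 1869 genes for distal share and 0 of 10065 for level at an adjusted p of 0.05, with 254 and 561 at an unadjusted p under 0.05; Fisher's exact test within a line called 260 in KYSE30 and 486 in TE-1 for distal share. VMA21 had no value at a minimum TPM of 10, because its pPAS stayed below it. Counts over all genes depended on the limits. In KYSE30, 72 genes had a higher and 128 a lower share with L-lactate: these became 225 and 365 at 5 points, 10 and 18 at 20 points, 131 and 202 at a minimum TPM of 1, 29 and 64 at a minimum of 10, and 36 and 70 with Fisher's exact test added. In TE-1, 126 and 105 became 361 and 303 at 5 points, 18 and 23 at 20 points, and 60 and 56 at a minimum TPM of 10. Between the control libraries, 146 and 443 became 281 and 740, 51 and 136, and 88 and 282 under the same settings, and between the L-lactate libraries 192 and 389 became 360 and 664, 59 and 118, and 117 and 242. Depth limits PAK1 most, with 66 and 70 tags in TE-1.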
